A study of Homo sapiens with 12 samples.

Results

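The genes described here are enzymes of heme synthesis and the glycine carrier that feeds the pathway, in 2 human cell lines with and without knockdown of NUDT21. The members were chosen by symbol, as steps of 1 pathway: SLC25A38, ALAS1, ALAS2, ALAD, UROS, UROD, CPOX, PPOX and FECH, which are 9 of the 17518 genes in the count table. All 9 passed the filter on low counts, which kept 13625 genes. The 12 RNA-seq libraries form 4 groups of 3: MUTZ-1 cells with a short hairpin RNA against NUDT21 (shNUDT21), MUTZ-1 cells with a control hairpin (genotype label WT), SKM-1 cells with shNUDT21 and SKM-1 cells with the control hairpin (genotype label WT). The labels describe both lines as marrow cells of myelodysplastic syndrome, a clonal disorder of blood formation, and all groups were grown in the same medium with fetal bovine serum. NUDT21 is a subunit of cleavage factor Im, which binds pre-mRNA near poly(A) sites. The column names give a single hairpin number, so effects of losing NUDT21 and other effects of that hairpin cannot be told apart, and the labels do not say whether the cells were clones. Nothing says that the replicates came from separate cultures, so the p-values reflect spread among these libraries alone, and that spread may be technical.

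Heme synthesis begins and ends in the mitochondrion. SLC25A38 is the carrier that brings glycine into the matrix, where 5-aminolevulinate synthase joins it to succinyl-CoA in the first and rate-limiting step. Most cells use the isoform ALAS1, which is turned down by heme, whereas developing red cells use ALAS2, an X-linked gene whose mRNA is translated according to iron supply. ALAD, UROS and UROD then take part in building and trimming the tetrapyrrole ring in the cytosol, CPOX and PPOX oxidise it in mitochondria, and FECH inserts iron. Loss of ALAS2 or SLC25A38 function causes congenital sideroblastic anemia, and inherited defects of several of the later enzymes cause porphyrias.

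The libraries held 15843012 to 18426619 counts each. NUDT21 was below its control level in every knockdown library, at 135 to 142 CPM (counts scaled to library size) in MUTZ-1 shNUDT21 against 297 to 301 CPM in MUTZ-1 control, and at 129 to 132 CPM in SKM-1 shNUDT21 against 322 to 343 CPM in SKM-1 control. The lines differed in their lineage markers. Of 18 erythroid markers, 14 in MUTZ-1 shNUDT21 and 15 in MUTZ-1 control were under 1 CPM, among them GATA1 and KLF1; the transferrin receptor TFRC made up most of their summed level of 317 to 323 CPM in MUTZ-1 shNUDT21 and 744 to 764 CPM in MUTZ-1 control. The same markers summed to 7200 to 7490 CPM in SKM-1 shNUDT21 and 2370 to 2410 CPM in SKM-1 control. HBB was under 1 CPM in both. EPB42 did not follow the sum, at 0.754 CPM in SKM-1 shNUDT21 against 1.12 CPM in SKM-1 control, with overlapping libraries. HBE1, TFRC and HBG2 made up most of both SKM-1 sums, with HBE1 at 1928 CPM in shNUDT21 and 971 CPM in control. The 12 B-lineage markers summed to 2060 to 2110 CPM in MUTZ-1 shNUDT21 and 2340 to 2350 CPM in MUTZ-1 control, with 0 of 12 under 1 CPM, while in SKM-1 they did not pass 17.8 CPM. Of 12 monocyte and granulocyte markers, 7 to 11 were under 1 CPM in each of the 4 groups, CD14, CSF1R and MPO in all of them. The sums of the 12 were 8.57 to 8.61 CPM in MUTZ-1 shNUDT21, 8.71 to 14.3 CPM in MUTZ-1 control, 126 to 137 CPM in SKM-1 shNUDT21 and 50 to 55.2 CPM in SKM-1 control. Others of this list were present in SKM-1 and higher in shNUDT21 than in control. These were CD68 (58.3 against 31.7 CPM), CD33 (39.75 against 8.55 CPM), LYZ (25.3 against 9.11 CPM) and ITGAM (6.21 against 2.42 CPM). In SKM-1, summed levels in shNUDT21 and control were 133 to 135 and 46.5 to 49.9 CPM for 6 megakaryocyte markers, 764 to 789 and 373 to 382 CPM for 5 epithelial markers, and 14.1 to 17.2 and 64.7 to 70.9 CPM for 6 fibroblast markers. In MUTZ-1 none of these 3 sums passed 3.18 CPM. The part of these marker differences in the results on heme genes was not tested. In bulk RNA, fewer cells of a type and less RNA per cell cannot be told apart.

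In MUTZ-1, 3 of the 9 members rose, CPOX, PPOX and ALAD, and UROS fell (adjusted p at most 0.0458, edgeR's quasi-likelihood test, adjusted over all genes by Benjamini-Hochberg). Among all genes tested, 24.4% rose and 24.6% fell, so the members' counts are near those of genes in general. None of these 4 changed by 2-fold or more, and the median log2 fold change of the members was 0.026, beside 0 over all genes.

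In SKM-1, most of the pathway's genes were higher after knockdown: 6 of the 9 members rose (adjusted p at most 0.000827, same test) and 0 fell; all 9 log2 fold changes were above 0 in the fit of all 12 libraries with TMM scaling, and the DESeq2 Wald test also called 0 lower. Among all genes tested, 42.1% rose and 42.3% fell in that comparison. ALAS2, UROD and FECH rose at least 2-fold, 3 of 9 members, against 12.6% of all genes. SLC25A38, CPOX and ALAD rose by less. ALAS1, UROS and PPOX did not pass the test, and the sign of their changes is not settled. All 3 were below 0 with library totals alone and with limma on FPKM, which are scaled by library totals too. UROS was also below 0 in TMM-scaled fits of only the groups compared (-0.00069) or without SKM-1 control replicate 2 (-0.031). The median log2 fold change of the 9 members was 0.33, beside a median of 0 over all genes and a median size of change of 0.69. In MUTZ-1, UROD and FECH had log2 fold changes within 0.03 of 0, and ALAS2 was close to absent.

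**Figure D1:**
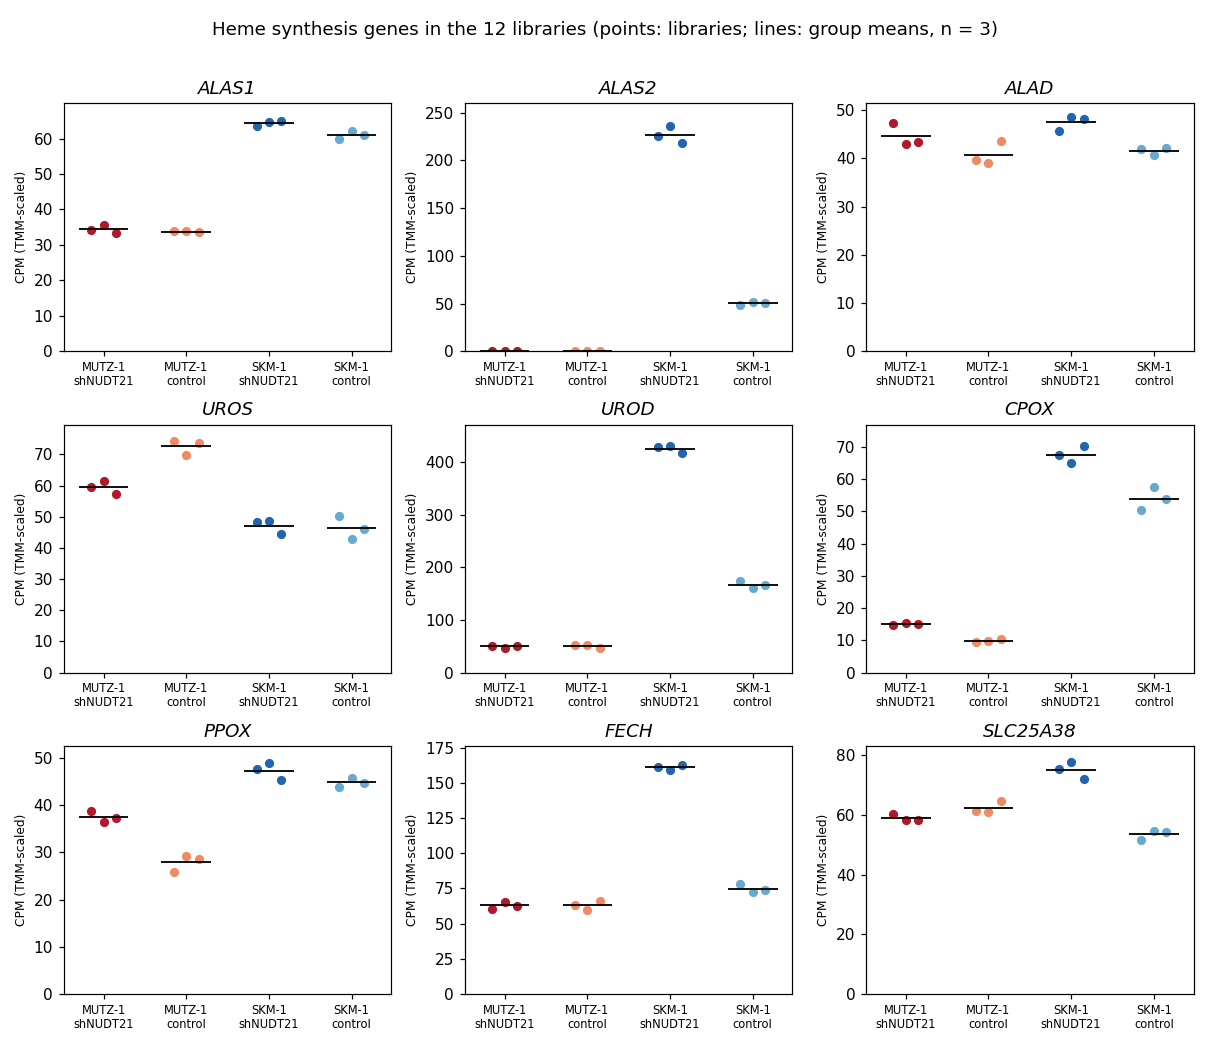
Normalised read counts (CPM after TMM scaling, vertical axes starting at 0) of the 9 members in each of the 12 libraries; points are libraries and lines are group means of 3. ALAS2, UROD and FECH stand higher in all 3 SKM-1 shNUDT21 libraries than in any other library, whereas the 3 MUTZ-1 shNUDT21 libraries stand clear of their controls upward for CPOX and PPOX and downward for UROS. SLC25A38, CPOX and ALAS1 also stand highest in the SKM-1 shNUDT21 libraries, by less, and ALAS1 did not pass the test.

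SLC25A38, the mitochondrial glycine carrier, had 60.3, 58.4 and 58.4 CPM in MUTZ-1 shNUDT21, against 61.4, 60.9 and 64.8 CPM in MUTZ-1 control. It had 75.4, 77.9 and 72.2 CPM in SKM-1 shNUDT21, against 51.7, 54.5 and 54.3 CPM in SKM-1 control. The SKM-1 shNUDT21 libraries were the highest of all 12 and did not overlap their controls, a rise of 1.40-fold (95% interval 1.32 to 1.5; log2 change 0.49 ± 0.05 SE, with adjusted p = 3.12e-21, edgeR). In MUTZ-1 the groups did not overlap either, with the shNUDT21 libraries slightly lower, but the change did not pass the test (-0.078 ± 0.046 SE, adjusted p = 0.158). The effects of knockdown differed between the lines by -0.57 ± 0.07 SE (MUTZ-1 minus SKM-1, adjusted p = 2.71e-15).

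ALAS1, the housekeeping isoform of the first enzyme, had 34.1, 35.7 and 33.4 CPM in MUTZ-1 shNUDT21, against 33.9, 33.8 and 33.7 CPM in MUTZ-1 control. It had 63.6, 64.6 and 65.1 CPM in SKM-1 shNUDT21, against 59.8, 62.2 and 61.1 CPM in SKM-1 control. The SKM-1 libraries were higher than the MUTZ-1 libraries throughout; the MUTZ-1 groups overlapped, and the SKM-1 shNUDT21 libraries stood slightly above their controls without overlap. The log2 fold change was 0.025 ± 0.058 SE in MUTZ-1 (95% interval -0.089 to 0.14, adjusted p = 0.766) and 0.078 ± 0.048 SE in SKM-1 (-0.016 to 0.17, adjusted p = 0.12). The intervals thus leave room for changes of up to 1.10-fold in MUTZ-1 and 1.13-fold in SKM-1. The SKM-1 value was -0.0028 with library totals alone as scaling.

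ALAS2, the erythroid isoform, was close to absent from MUTZ-1, with raw counts of 1, 4 and 4 in shNUDT21, against 0, 0 and 3 in control. These 9 and 3 counts overlap between the groups and give a ratio of 3.15 with an exact interval of 0.786 to 18.1, which covers counting error only, so no change was detectable at this depth (adjusted p = 0.123). All 3 control counts came from replicate 3; without that library the MUTZ-1 change passed the test (adjusted p = 0.00695), against a control group without any count. In SKM-1 it had 226, 236 and 218 CPM in shNUDT21, against 48.6, 51.8 and 50.7 CPM in control. All 3 knockdown libraries were more than 4 times the highest control, and the rise was 4.49-fold (95% interval 4.25 to 4.75; log2 change 2.17 ± 0.04 SE, with adjusted p = 6.4e-114, edgeR). The difference between the lines' effects did not pass the test for ALAS2 (adjusted p = 0.681), and on log2(FPKM + 1) values with limma it did (-1.96, adjusted p = 1.9e-11), as it did with 0.1 added (-1.49, adjusted p = 0.000893). ALAS2 had at most 0.123 FPKM in MUTZ-1, so the added constant pulls the MUTZ-1 change toward 0. The limma calls therefore cannot show that the lines' effects on ALAS2 differ.

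Levels of the 2 isoforms were compared per length, in the deposited FPKM (fragments scaled to gene length and library size). In MUTZ-1, ALAS1 had 13.5 to 14.4 FPKM in shNUDT21 and 13.1 to 13.2 FPKM in control, and ALAS2 did not pass 0.851% of the sum in any library. In SKM-1 shNUDT21, ALAS2 had 110, 114 and 106 FPKM and ALAS1 had 25.8, 26.1 and 26.4 FPKM. In SKM-1 control, ALAS2 had 25.1, 26.7 and 26.0 FPKM and ALAS1 had 25.6, 26.6 and 26.1 FPKM. The isoforms were thus level in SKM-1 control, where ALAS2 made up 49.5% to 50% of their sum in the 3 libraries, and ALAS2 made up 80.1% to 81.4% in SKM-1 shNUDT21. The summed level of both isoforms was 133 to 141 FPKM in SKM-1 shNUDT21 and 50.7 to 53.3 FPKM in SKM-1 control.

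The ratio of ALAS1 to ALAS2 was also taken within each library. As log2 of FPKM plus 0.1, it was 6.25 ± 0.44 in MUTZ-1 shNUDT21 and 6.77 ± 0.49 in MUTZ-1 control (SD, n = 3 each), a difference of -0.52 that is about as large as the spread within the groups (two-sided exact permutation test, p = 0.2). With ALAS2 at 0 in 2 of the 3 MUTZ-1 control libraries, these MUTZ-1 values are set largely by the constant, and the difference was -0.0165 with 1 added and -1.98 with 0.01 added. The ratio was -2.07 ± 0.06 in SKM-1 shNUDT21 and 0.010 ± 0.017 in SKM-1 control (SD, n = 3 each), a difference of -2.09 (exact permutation p = 0.1, the smallest that 3 against 3 libraries allow) that stayed at -2.05 and -2.09 with those constants. On the same scale the glycine carrier SLC25A38 had 16.7 to 17.2 FPKM in MUTZ-1 shNUDT21 and 16.8 to 17.9 FPKM in MUTZ-1 control, and 20.8 to 22.3 FPKM in SKM-1 shNUDT21 and 15.7 to 16.5 FPKM in SKM-1 control.

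**Figure D2:**
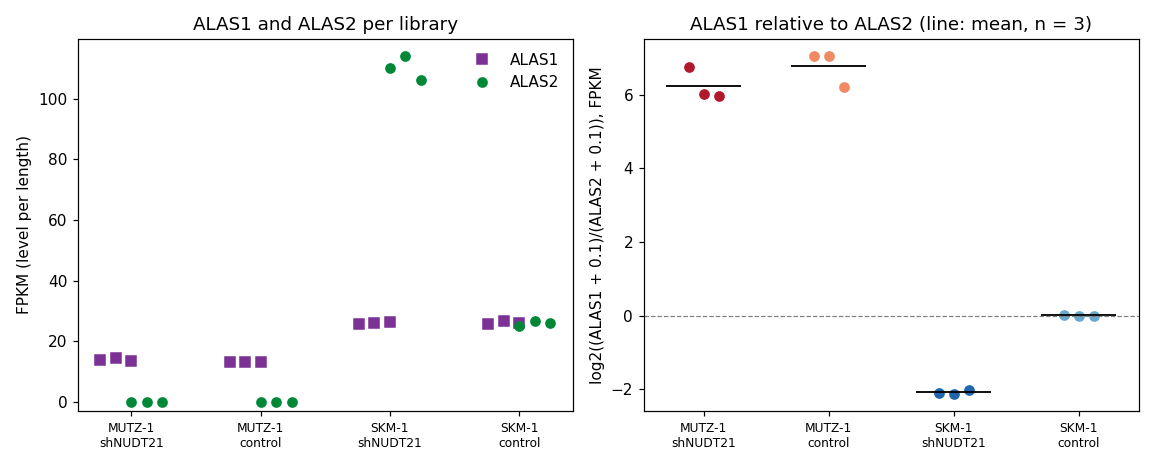
Left, FPKM (level per length) of ALAS1 (squares) and ALAS2 (circles) in each library; right, log2 ratio of ALAS1 to ALAS2 per library after adding 0.1 FPKM, with lines at the means of 3. In SKM-1 the ratio is near 0 in control and near -2.07 in shNUDT21, with ALAS1 itself at 25.6 to 26.6 FPKM in all 6 libraries.

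The stretches upstream of the start sites of the pair are shown because the isoforms parted in SKM-1 and because ALAS2 is a textbook target of erythroid transcription factors. They are the 250 bases before the RefSeq start (GRCh38.p14), 5′ to 3′ on the gene's strand, with capitals marking GATA-type and NFE2-type matches. The GATA-type motif was searched as AGATAA or AGATAG or TGATAA or TGATAG and the NFE2-type core as TGANTCA, on both strands.
ALAS2, chrX:55030978-55031227, minus strand: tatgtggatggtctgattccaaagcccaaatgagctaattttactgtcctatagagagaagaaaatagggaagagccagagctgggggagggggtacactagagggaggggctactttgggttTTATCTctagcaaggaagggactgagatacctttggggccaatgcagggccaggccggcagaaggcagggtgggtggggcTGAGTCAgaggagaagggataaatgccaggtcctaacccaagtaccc
ALAS1, chr3:52197833-52198082, plus strand: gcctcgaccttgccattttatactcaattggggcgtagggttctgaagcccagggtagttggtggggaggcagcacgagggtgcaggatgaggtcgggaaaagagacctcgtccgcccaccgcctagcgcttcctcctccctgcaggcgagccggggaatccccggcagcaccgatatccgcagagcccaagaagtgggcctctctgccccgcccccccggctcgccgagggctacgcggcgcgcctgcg
The ALAS2 stretch holds 1 GATA-type match 127 bases upstream of the start and 1 NFE2-type match 47 bases upstream, with 2 CACCC boxes (KLF1-type) 60 and 56 bases upstream. Of 35116 promoter windows of this length, 22.3% held a GATA-type match, 6.57% an NFE2-type match and 54.7% a CACCC box. The ALAS1 stretch holds neither of the first 2 motifs and has GGGCGG (SP1-type) 138 and 41 bases upstream, a motif of 42.6% of the windows, beside 1 CACCC box. It is also richer in G and C, at 67.2% against 52.8% in the ALAS2 stretch and a median of 58.0% over all windows. A match is a description of these letters, and binding was not measured.

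ALAD, which joins a pair of 5-aminolevulinate molecules into porphobilinogen, had 47.3, 43.1 and 43.4 CPM in MUTZ-1 shNUDT21, against 39.6, 39.1 and 43.7 CPM in MUTZ-1 control. It had 45.7, 48.5 and 48.1 CPM in SKM-1 shNUDT21, against 41.9, 40.7 and 42.1 CPM in SKM-1 control. The MUTZ-1 groups overlap and the SKM-1 groups do not. The rise in MUTZ-1 (log2 fold change 0.13 ± 0.06 SE, adjusted p = 0.0458) was lost without the filter on low counts (adjusted p = 0.0526) and without shNUDT21 replicate 1 (adjusted p = 0.294), control replicate 1 (0.0711) or control replicate 2 (0.0944). The rise in SKM-1 (0.19 ± 0.06 SE, adjusted p = 0.000827) was lost with library totals alone as scaling (adjusted p = 0.0545). It was also lost with limma on log2(FPKM + 1) or log2(FPKM + 0.1) (adjusted p = 0.0571 and 0.0596). The difference between the lines' effects was -0.063 ± 0.079 SE (adjusted p = 0.49).

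UROS, which closes and inverts the tetrapyrrole ring, was the only member called lower in either knockdown comparison. It had 59.4, 61.5 and 57.4 CPM in MUTZ-1 shNUDT21, against 74.2, 69.9 and 73.8 CPM in MUTZ-1 control. The groups did not overlap, and UROS fell to 0.818-fold of control (95% interval 0.767 to 0.872; log2 change -0.29 ± 0.05 SE, with adjusted p = 2.01e-08). In SKM-1 it had 48.5, 48.6 and 44.4 CPM in shNUDT21 and 50.2, 42.9 and 46.1 CPM in control, overlapping groups with a log2 fold change of 0.024 ± 0.052 SE (adjusted p = 0.676). The difference between the effects was -0.31 ± 0.07 SE (adjusted p = 2.22e-05), a call that limma on log2(FPKM + 0.1) did not make (adjusted p = 0.0566).

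UROD, which removes the carboxyl groups of the acetate side chains of uroporphyrinogen, had 51.6, 47.6 and 51.0 CPM in MUTZ-1 shNUDT21, against 52.5, 53.1 and 47.6 CPM in MUTZ-1 control. It had 429, 430 and 418 CPM in SKM-1 shNUDT21, against 174, 160 and 167 CPM in SKM-1 control. The MUTZ-1 groups overlapped, and every SKM-1 shNUDT21 library was above 2 times the highest SKM-1 control. The log2 fold change in MUTZ-1 was -0.026 ± 0.046 SE (adjusted p = 0.682), whereas UROD rose 2.55-fold in SKM-1 (95% interval 2.45 to 2.65; log2 change 1.35 ± 0.03 SE, with adjusted p = 2.22e-106). The effects differed between the lines by -1.37 ± 0.05 SE (MUTZ-1 minus SKM-1, adjusted p = 3.55e-62), which was the largest difference among the members that passed the test.

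FECH, the ferrochelatase that completes heme, had 60.8, 65.4 and 62.7 CPM in MUTZ-1 shNUDT21, against 62.9, 59.9 and 66.4 CPM in MUTZ-1 control, groups that overlap. It had 161, 159 and 163 CPM in SKM-1 shNUDT21, against 78.1, 72.3 and 73.7 CPM in SKM-1 control, groups that stand about 2-fold apart. The log2 fold change in MUTZ-1 was -0.0048 ± 0.044 SE (95% interval -0.092 to 0.082, adjusted p = 0.984), and the rise in SKM-1 was 2.16-fold (95% interval 2.05 to 2.27; log2 change 1.11 ± 0.04 SE, with adjusted p = 3.06e-75). The difference between the effects was -1.11 ± 0.06 SE (adjusted p = 7.67e-47).

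The same upstream stretches of UROD and FECH are shown because these members, like ALAS2, rose at least 2-fold in SKM-1. Neither holds a GATA-type or NFE2-type match or a CACCC box, so no letters are in capitals.
UROD, chr1:45012004-45012253, plus strand: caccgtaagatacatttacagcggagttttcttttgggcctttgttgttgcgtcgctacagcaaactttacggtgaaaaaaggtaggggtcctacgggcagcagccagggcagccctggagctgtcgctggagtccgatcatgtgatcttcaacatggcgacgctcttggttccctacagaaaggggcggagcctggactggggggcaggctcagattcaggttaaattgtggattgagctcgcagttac
FECH, chr18:57586703-57586952, minus strand: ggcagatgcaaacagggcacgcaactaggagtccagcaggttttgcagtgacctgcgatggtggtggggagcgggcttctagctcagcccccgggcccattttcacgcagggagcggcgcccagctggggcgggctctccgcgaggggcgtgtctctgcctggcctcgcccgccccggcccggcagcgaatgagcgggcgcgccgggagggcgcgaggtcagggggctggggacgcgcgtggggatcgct
UROD has GGGCGG 66 bases upstream and FECH has it 123 and 81 bases upstream. The stretches differ in composition, with 53.6% G and C in UROD and 72.4% in FECH. Of the other members found in the promoter table, CPOX has GATA-type matches 207 and 125 bases upstream, and 1 of the 2 windows of ALAD and of PPOX has such a match. Its absence from 250 bases says nothing about sites elsewhere.

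CPOX and PPOX, the oxidases between UROD and FECH, were the members that rose most in MUTZ-1. CPOX had 14.9, 15.3 and 15.1 CPM in MUTZ-1 shNUDT21, against 9.45, 9.85 and 10.3 CPM in MUTZ-1 control, and 67.5, 65.1 and 70.2 CPM in SKM-1 shNUDT21, against 50.4, 57.5 and 53.8 CPM in SKM-1 control. Knockdown libraries were above controls in both lines without overlap. CPOX rose 1.52-fold in MUTZ-1 (95% interval 1.35 to 1.72, adjusted p = 7.97e-10) and 1.25-fold in SKM-1 (1.16 to 1.35, adjusted p = 1.21e-08), and the log2 effect was larger in MUTZ-1 by 0.28 ± 0.10 SE (adjusted p = 0.0114). It was the only member, ALAD apart, that was called higher in both lines.

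PPOX had 38.7, 36.4 and 37.2 CPM in MUTZ-1 shNUDT21, against 25.9, 29.2 and 28.7 CPM in MUTZ-1 control. It had 47.7, 48.9 and 45.3 CPM in SKM-1 shNUDT21, against 43.9, 45.8 and 44.7 CPM in SKM-1 control, where the groups overlap. The rise in MUTZ-1 was 1.34-fold (95% interval 1.23 to 1.46, adjusted p = 1.05e-09), the SKM-1 change did not pass the test (log2 fold change 0.078 ± 0.056 SE, adjusted p = 0.19), and the effects differed by 0.34 ± 0.08 SE (adjusted p = 0.00011). PPOX shares 1118 exonic bases, 24.3% of its own, with B4GALT3 on the opposite strand, and the strand setting of the counting is not given in the sources used here. B4GALT3 moved the other way in MUTZ-1 (log2 fold change -0.10 ± 0.04 SE, adjusted p = 0.00996). The part of B4GALT3 reads in the PPOX counts was not tested.

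**Figure D3:**
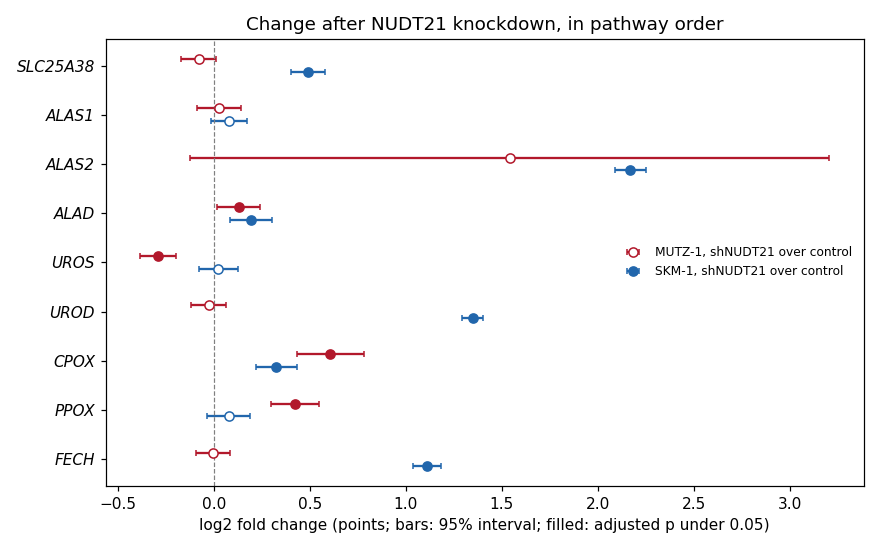
Log2 fold change of shNUDT21 over control (points) with 95% intervals (bars) in MUTZ-1 and SKM-1, in pathway order from top to bottom; filled points have an adjusted p under 0.05. In SKM-1 the points of ALAS2, UROD and FECH lie above 1, in MUTZ-1 CPOX and PPOX lie highest among called genes, and the wide MUTZ-1 bar of ALAS2 rests on 9 and 3 counts.

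The difference between the lines' knockdown effects passed the test for 6 of the 9 members. It was higher in MUTZ-1 for CPOX and PPOX, 2 of 9, against 36.4% of all genes, and lower in MUTZ-1 for SLC25A38, UROS, UROD and FECH, 4 of 9, against 35.6% of all genes. These counts over so few genes are close to the background. The sizes for UROD and FECH exceed 1 log2 unit, beside a median size of 0.785 over all genes. The 2 knockdown comparisons share no libraries.

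Without knockdown the lines already differed. Of the 9 members, 2 were higher in MUTZ-1 control, against 41.4% of all genes, and 6 were lower, against 48.8% of all genes. Over so few genes, these counts are not far from the background. The median log2 fold change was -0.68 over the members, beside -0.109 over all genes. ALAS2 differed most, with 3 counts in MUTZ-1 control and 2703 in SKM-1 control, 875-fold lower (exact 95% interval 299 to 4250, counting error only). CPOX was 5.45-fold lower in MUTZ-1 control (log2 fold change -2.45 ± 0.07 SE) and UROD 3.28-fold lower (-1.71 ± 0.04 SE). ALAS1 (-0.85 ± 0.05 SE), PPOX (-0.68 ± 0.06 SE) and FECH (-0.24 ± 0.04 SE) were lower by less, with adjusted p at most 4.63e-08 for all 6. UROS was higher in MUTZ-1 control, by 0.65 ± 0.05 SE (adjusted p = 1.29e-29), and SLC25A38 by 0.22 ± 0.05 SE (adjusted p = 5.42e-06). The call of SLC25A38 was lost with library totals alone (0.084, adjusted p = 0.0786) and with limma on log2(FPKM + 1) or log2(FPKM + 0.1) (adjusted p = 0.0509 and 0.0508). ALAD was level, at 40.8 ± 2.5 CPM in MUTZ-1 control and 41.5 ± 0.73 CPM in SKM-1 control (SD, n = 3 each; adjusted p = 0.658). Library totals alone put ALAD lower in MUTZ-1 control (-0.16, adjusted p = 0.00495), as did limma on log2(FPKM + 1) or log2(FPKM + 0.1) (adjusted p = 0.00799 and 0.00824).

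Between the knockdown groups, MUTZ-1 shNUDT21 was higher than SKM-1 shNUDT21 for 1 member, UROS (0.33 ± 0.05 SE), against 41.4% of all genes, and lower for 7, against 46.6% of all genes. ALAS2 had 9 counts in MUTZ-1 shNUDT21 and 11057 in SKM-1 shNUDT21, 1250-fold lower (exact 95% interval 657 to 2730). UROD was 8.49-fold lower in MUTZ-1 shNUDT21 (95% interval of the log2 fold change -3.15 to -3.02), and FECH 2.56-fold lower. SLC25A38 was lower in MUTZ-1 shNUDT21 (-0.35 ± 0.05 SE, adjusted p = 1.35e-12), opposite in sign to the comparison of the control groups. These comparisons of lines use the same libraries as the knockdown comparisons.

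Ordered by level, UROD, CPOX, ALAS1 and PPOX had SKM-1 shNUDT21 first, SKM-1 control next and the MUTZ-1 groups after them, with MUTZ-1 shNUDT21 and MUTZ-1 control not differing beyond their spread for UROD and ALAS1, and the SKM-1 groups not differing by the test for PPOX and ALAS1. FECH had the same order of the first 2 groups, 161 ± 1.8 CPM and 74.7 ± 3.0 CPM, followed by MUTZ-1 shNUDT21 at 63.0 ± 2.3 CPM and MUTZ-1 control at 63.1 ± 3.3 CPM (SD, n = 3 each), a pair that did not differ. UROS had the reverse order of lines, with MUTZ-1 shNUDT21 at 59.4 ± 2.1 CPM, MUTZ-1 control at 72.6 ± 2.3 CPM, SKM-1 shNUDT21 at 47.2 ± 2.4 CPM and SKM-1 control at 46.4 ± 3.7 CPM (SD, n = 3 each), and the SKM-1 groups did not differ.

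Per length, UROD had the highest FPKM of the members in each of the 4 groups, at 41.6 ± 1.8 FPKM in MUTZ-1 shNUDT21, 41.1 ± 2.4 FPKM in MUTZ-1 control, 356 ± 4.7 FPKM in SKM-1 shNUDT21 and 148 ± 6.3 FPKM in SKM-1 control (SD, n = 3 each). The lowest was ALAS2 in the MUTZ-1 groups, at most 0.123 FPKM, with CPOX next at 3.06 ± 0.04 FPKM in MUTZ-1 shNUDT21 and 1.94 ± 0.09 FPKM in MUTZ-1 control. In the SKM-1 groups UROS was lowest, at 8.03 ± 0.39 FPKM in SKM-1 shNUDT21 and 8.37 ± 0.67 FPKM in SKM-1 control. FPKM of different genes rest on the gene lengths that the authors used. Those lengths, recovered from counts and FPKM, were 2463 bases for ALAS1 and 2047 for ALAS2, close to the 2536 and 2134 exonic bases of GENCODE v29, but 1193 for UROD against 2908 and 7880 for FECH against 4473. The lengths also differed for UROS (5849 against 9532), CPOX (4888 against 3232) and ALAD (3711 against 4983). The same held for PPOX (3562 against 4607) and SLC25A38 (3474 against 2708). Levels of these genes, UROD and FECH relative to other genes, and the ranks above, therefore depend on the gene model. In comparisons of the same gene between groups the length cancels. The reads counted for a gene still depend on the gene model, and the part of altered poly(A) site use in the counts was not tested.

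**Figure D4:**
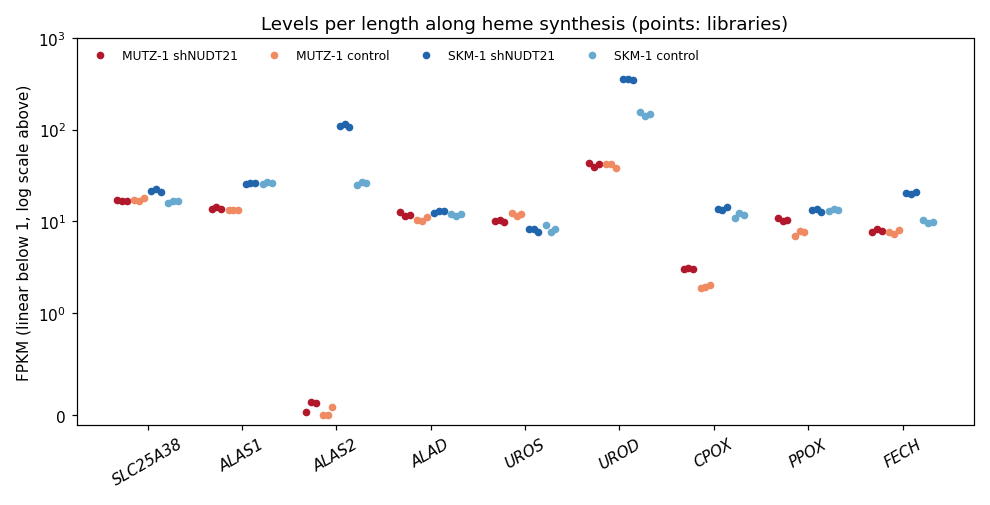
FPKM in each library (points), in pathway order; the vertical axis is linear below 1 and logarithmic above, and colours mark the 4 groups. With the gene lengths that the authors used, UROD stands highest among the members in every group, and the MUTZ-1 points of ALAS2 lie between 0 and 0.123 FPKM.

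By a fixed measure, the root mean square difference of centred log2 CPM over the 12 libraries, the genes most like ALAS2 among the 10892 genes that averaged 5 CPM or more were HBZ (0.318), KLF1 (0.397), NFE2 (0.44), GATA1 (0.449) and HEPH (0.451). HBZ encodes the embryonic zeta globin, KLF1, NFE2 and GATA1 are erythroid transcription factors, and HEPH is a copper-dependent ferroxidase. All 5 averaged under 1 CPM in both MUTZ-1 groups and were higher in SKM-1 shNUDT21 than in SKM-1 control. That pattern follows from their selection by likeness to ALAS2 in these same libraries and is not a separate result. HBZ averaged 0.488 CPM in MUTZ-1 shNUDT21 and 0.305 CPM in MUTZ-1 control, and 579 CPM in SKM-1 shNUDT21 and 127 CPM in SKM-1 control. GATA1 had 7 counts in MUTZ-1 shNUDT21 and 3 in MUTZ-1 control, and averaged 270 CPM in SKM-1 shNUDT21 and 63.9 CPM in SKM-1 control. The measure is a description over 4 groups that share a line difference, and the points within a group share their cells.

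The genes most like ALAS1 were others, led by BCL2L13 (0.0467), a mitochondrial outer membrane protein of the BCL2 family, and by the lysosomal transporter SPNS1 (0.0477), followed by ITPRID2 (0.0542), the tubulin-tyrosine ligase TTL (0.0558) and SH3GL1 (0.0601). BCL2L13 averaged 68.0 CPM in MUTZ-1 shNUDT21 and 68.1 CPM in MUTZ-1 control, and 133 CPM in SKM-1 shNUDT21 and 123 CPM in SKM-1 control, a step between lines of the kind ALAS1 shows. None of these 5 genes was among the 5 of ALAS2, which follows from the unlike profiles of the isoforms.

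Around the enzymes, genes of mitochondrial transport for heme synthesis went both ways. In MUTZ-1, 5 of 11 tested rose and 1 fell, and in SKM-1, 5 rose and 6 fell, with list medians of 0.031 and -0.093 log2 units beside 0 over all genes in each line. Over all genes tested, 24.4% rose and 24.6% fell in MUTZ-1, and 42.1% rose and 42.3% fell in SKM-1, so the SKM-1 counts are near the background. TMEM14C, which in mouse is needed to bring protoporphyrinogen into the matrix, rose slightly in MUTZ-1, to 17.8 CPM in shNUDT21 against 15.5 CPM in control, and more in SKM-1, to 133 CPM in shNUDT21 against 67.1 CPM in control. FAM210B, a mitochondrial protein studied in erythroid cells, rose in SKM-1 to 128 CPM against 68.7 CPM in control. The iron importer of red cell precursors, SLC25A37 (mitoferrin-1), rose by 0.18 ± 0.06 SE in MUTZ-1 and by 0.48 ± 0.04 SE in SKM-1 (log2, adjusted p = 0.00737 and 2.64e-23). TSPO, an outer membrane protein, fell in SKM-1 to 22.9 CPM in shNUDT21 against 58.4 CPM in control (log2 fold change -1.35 ± 0.07 SE). In MUTZ-1, SLC25A40 rose (0.19) and SLC25A39 fell (-0.16), both carriers linked to mitochondrial glutathione.

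Most genes that handle the substrates of the first step fell in SKM-1. Of 11 tested genes of succinyl-CoA and glycine supply, 3 fell and 1 rose in MUTZ-1 (median log2 fold change -0.031), and 9 fell and 1 rose in SKM-1 (median -0.45), where 42.3% of all genes fell and 42.1% rose (24.6% and 24.4% in MUTZ-1). GLDC and AMT, parts of the glycine cleavage system, had 2.48 CPM and 1.27 CPM in SKM-1 shNUDT21, against 63.6 CPM and 9.14 CPM in SKM-1 control (log2 fold changes -4.68 ± 0.11 SE and -2.84 ± 0.22 SE). These genes break glycine down, so the list holds genes that supply the substrate and genes that consume it. SHMT2, which makes glycine from serine in mitochondria, fell as well (-1.04 ± 0.02 SE, adjusted p = 8.98e-102). DLD, the dihydrolipoamide dehydrogenase shared by several mitochondrial complexes, was the gene that rose, to 261 CPM in SKM-1 shNUDT21 against 129 CPM in SKM-1 control. In MUTZ-1, SHMT1 rose (0.17) and OGDH (-0.26) and GCSH (-0.13) fell, by small amounts, and the GCSH call was lost in several alternatives.

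Of 14 genes of iron-sulfur cluster assembly, on which heme synthesis draws, 1 rose and 6 fell in MUTZ-1 (median log2 fold change -0.12), and 9 rose and 4 fell in SKM-1 (median 0.24), beside 24.4% higher and 24.6% lower of all genes in MUTZ-1 and 42.1% and 42.3% in SKM-1. The ferredoxin FDX2 (0.79 ± 0.09 SE) and its reductase FDXR (0.71 ± 0.05 SE) led in SKM-1, and HSCB (-0.58 ± 0.14 SE) and ISCA1 (-0.41 ± 0.07 SE) fell there. In MUTZ-1 the desulfurase NFS1 rose (0.29 ± 0.06 SE), and the chaperone HSPA9, an inherited cause of sideroblastic anemia, fell to 583 CPM in MUTZ-1 shNUDT21 against 748 CPM in MUTZ-1 control (-0.36 ± 0.02 SE, adjusted p = 1.55e-40). In SKM-1, HSPA9 went the other way, with 796 CPM in shNUDT21 against 543 CPM in control. HSCB, its partner, was called lower in MUTZ-1 (-0.33 ± 0.12 SE, adjusted p = 0.0195), and the DESeq2 Wald test did not make that call (adjusted p = 0.06).

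Among 13 genes with known roles in the control of ALAS1 or ALAS2, 2 rose and 3 fell in MUTZ-1 (median log2 fold change -0.0075), and 10 rose and 2 fell in SKM-1 (median 0.33). Of all genes, 24.4% rose and 24.6% fell in MUTZ-1, and 42.1% rose and 42.3% fell in SKM-1. In SKM-1, GATA1 rose by 2.08 ± 0.04 SE and KLF1 by 1.89 ± 0.05 SE (log2, adjusted p = 3e-125 and 2.46e-101), and BACH1, a repressor that is released by heme, rose by 0.76 ± 0.05 SE. ACO1 and IREB2, the iron regulatory proteins that hold back translation of ALAS2 mRNA when iron is low, rose by 0.51 ± 0.05 SE and 0.10 ± 0.03 SE (adjusted p = 9.29e-20 and 0.00328). PPARGC1A, a coactivator that raises ALAS1 in mouse liver, fell to 0.802 CPM in SKM-1 shNUDT21 against 42.2 CPM in SKM-1 control (-5.71 ± 0.16 SE, adjusted p = 3.19e-85), while ALAS1 itself did not pass the test there. In MUTZ-1, EIF2AK1, the heme-regulated kinase, was called higher (0.067), and the mitochondrial protease subunits CLPX (-0.26), which acts on ALAS proteins, and LONP1 (-0.14) fell. Counts of mRNA show neither translation by iron supply nor the protein stability that CLPX controls.

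Downstream, genes of heme export and breakdown went both ways in each line, 4 up and 2 down of 9 tested in MUTZ-1 (median log2 fold change 0.36) and 4 up and 3 down in SKM-1 (median -0.013). The SKM-1 counts are near the shares of all genes, 42.1% up and 42.3% down, and in MUTZ-1 those shares were 24.4% and 24.6%. BLVRB, a biliverdin reductase abundant in red cells, rose in SKM-1 to 283 CPM in shNUDT21 against 127 CPM in control, and the heme-binding protein HEBP1 fell to 8.34 CPM against 19.2 CPM in control. The heme transporter SLC48A1 rose in both lines, by 0.44 ± 0.09 SE in MUTZ-1 and 0.49 ± 0.06 SE in SKM-1 (log2, adjusted p = 1.25e-05 and 1.49e-12). In MUTZ-1, HEBP2 rose (0.51), and the heme exporter FLVCR1 (-0.32) and the heme oxygenase HMOX2 (-0.22) fell; FLVCR1 rose in SKM-1 (0.40 ± 0.08 SE, adjusted p = 2.42e-06).

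Of 11 tested genes of heme a, heme c and heme proteins, 2 rose and 3 fell in MUTZ-1 (median log2 fold change -0.075), and 7 rose and 3 fell in SKM-1 (median 0.47). The MUTZ-1 counts are near the 24.4% and 24.6% of all genes that rose and fell there, and the SKM-1 shares were 42.1% and 42.3%. CYBA, a subunit of cytochrome b558, rose in SKM-1 to 179 CPM in shNUDT21 against 56.2 CPM in control, and HCCS, which attaches heme to cytochrome c, rose to 72.2 CPM against 38.1 CPM in control. Cytochrome b5 (CYB5A) fell there to 6.84 CPM against 33.9 CPM in control, and COX15, of heme a synthesis, fell by 0.53 on the log2 scale but rose by 0.18 ± 0.04 SE in MUTZ-1. CYCS, the somatic cytochrome c, fell in MUTZ-1 to 374 CPM in shNUDT21 against 493 CPM in control (-0.40 ± 0.02 SE), as did SDHD (-0.27), while SDHC rose (0.12). These genes went the other way in SKM-1. In shNUDT21 against control, CYCS had 448 against 264 CPM, SDHD 133 against 94.5 CPM and SDHC 97.3 against 113 CPM.

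**Figure D5:**
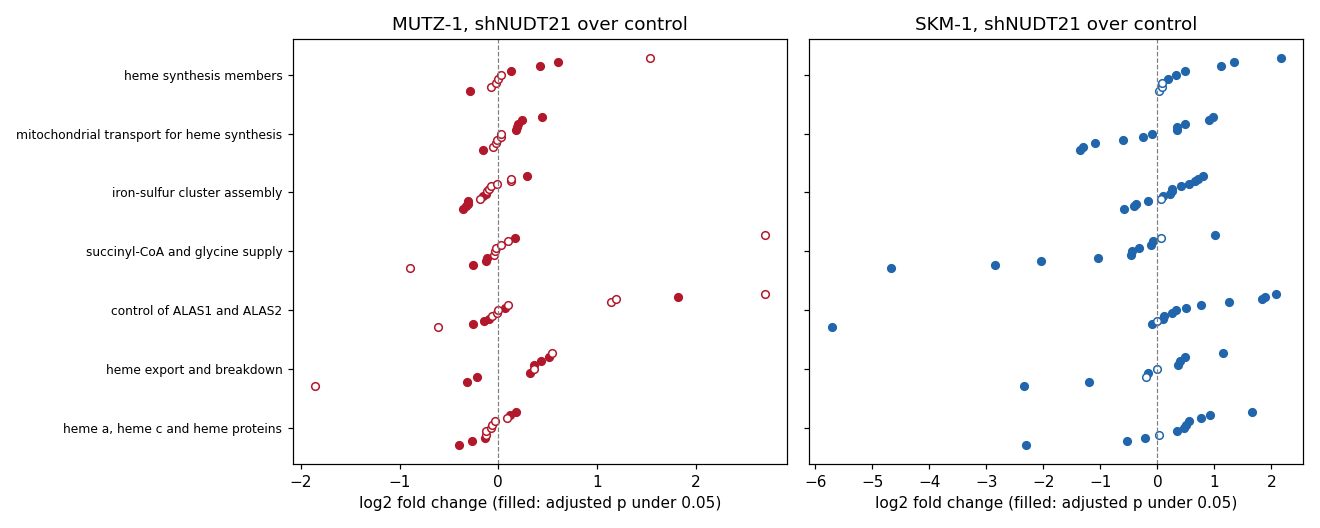
Log2 fold change of shNUDT21 over control for the members and the tested genes of 6 surrounding lists in MUTZ-1 (left) and SKM-1 (right), with different horizontal scales; each point is a gene, and filled points have an adjusted p under 0.05. In this fit of 12 libraries the SKM-1 members lie above 0, though ALAS1, UROS and PPOX lie below it with library totals alone or limma, and UROS also in some TMM-scaled fits with libraries left out; the surrounding lists spread to both sides, down to -5.71 for PPARGC1A.

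Medians of the log2 fold change per chromosome ranged from -0.021 to 0.035 in MUTZ-1 and from -1.08 to 0.469 in SKM-1, over 13305 genes with a position in GENCODE v29 (GRCh38). The SKM-1 members that rose stood above their surroundings. ALAS2 (chrX:55009055-55031064) changed by 2.17 where its chromosome's median was -0.448 and that of its 40 nearest tested genes was -0.405. FECH (chr18:57548283-57586772) changed by 1.11 where the 40 neighbours had a median of -0.354, and UROD (chr1:45012147-45015575) by 1.35 where they had 0.03. SLC25A38 (chr3:39383324-39397351) is closer to its surroundings, with 0.49 beside a median of 0.361 in the 40 neighbours and -0.074 over the chromosome. The part of these regional shifts in the members' values was not tested. CPOX (chr3:98579446-98593723), the member with the largest called rise in MUTZ-1, changed there by 0.61 where its neighbours had a median of 0.027.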

How the data were processed

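The deposited counts are whole numbers of reads per gene, not normalised, and the deposited FPKM come from the same libraries, per the file headers. The tools fastp, HISAT2 and HTSeq and the build GRCh38 are named in the submitters' processing notes, without versions; the sources used here give neither annotation nor strand setting. Lines, groups and replicate numbers were read from the sample titles, and 0 value columns were left out. In R 4.3.3, filterByExpr of edgeR 4.0.16 kept 13625 genes, counts were scaled by TMM (factors 0.959 to 1.06), and the quasi-likelihood test was run in 1 fit of 12 libraries with a mean per group (8 residual degrees of freedom, biological coefficient of variation 2.44%). P-values were adjusted by Benjamini-Hochberg over all genes tested, and a gene is called at an adjusted p under 0.05. SE is the absolute log2 fold change over the root of the F statistic. CPM are TMM-scaled. The fit was checked on simulated data with the same spread for all genes and few changed genes. That check does not cover the scaling in SKM-1, where most genes were called. Ratios of ALAS2 counts that involve a MUTZ-1 group (3 or 9 counts) carry exact 95% binomial intervals that, like the limit of 3 counts over a group for a count of 0, cover counting error only. FPKM was used for levels between genes, for the ALAS1 to ALAS2 ratio and, as log2 with 1 or 0.1 added, for limma 3.58.1. Replicates differed by more than sampling noise (chi-square per degree of freedom 1.67 to 2.28).

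The alternatives were DESeq2 1.42.0, its size factors in edgeR, library totals alone, no filter, limma on FPKM, a replicate block, a fit of only the groups compared, and each library left out. From each surrounding list, the text names per line and direction up to 2 genes with the largest called change, an average of 5 CPM or more and groups that do not overlap (some genes are not reported here), and for ALAS1 and ALAS2 the 5 most similar genes. SLC25A37, SHMT2, BACH1, ACO1, IREB2, TFRC, B4GALT3 and the SKM-1 values of FLVCR1, HSPA9, CYCS, SDHC and SDHD fall outside that rule and were named after their values were seen. The same holds for the markers CD68, CD33, LYZ and ITGAM. The members, lists and tests were chosen with earlier results of these data known. Positions are from GENCODE v29 and upstream sequences from RefSeq (GRCh38.p14), where 8 of the 9 members matched.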

Additional observations from a re-analysis of the deposited data

Results flagged for a closer look

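For the genes below, the effect of knockdown differed between the lines by a test of the difference itself (edgeR's quasi-likelihood test, adjusted p under 0.05), and each had at least 30 counts in each line. Values are log2 fold changes of shNUDT21 over control, MUTZ-1 minus SKM-1. Over all genes tested, 36.4% had a higher and 35.6% a lower value in MUTZ-1 by this test. Among the members, the difference was -1.37 for UROD, -1.11 for FECH, -0.57 for SLC25A38 and -0.31 for UROS, and 0.34 for PPOX and 0.28 for CPOX. NUDT21 itself had 0.23, a smaller fall in MUTZ-1 than in SKM-1.

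Among the transport genes, the difference was -0.78 for TMEM14C, -0.46 for FAM210B and -0.16 for SLC25A40, and 1.58 for TSPO. Among the iron-sulfur genes it was -0.91 for HSPA9, -0.86 for FDX2 and -0.58 for FDXR. Among the substrate genes it was -1.13 for DLD, -0.18 for GCSH and -0.17 for OGDH, and 0.62 for SHMT1. CLPX had -0.17 and LONP1 -0.14. Among the genes of export and breakdown it was -0.83 for BLVRB, -0.71 for FLVCR1 and -0.57 for HMOX2, and 0.52 for HEBP2 and 1.57 for HEBP1. Among the heme proteins and their assembly factors it was -1.70 for CYBA, -1.16 for CYCS, -1.05 for HCCS and -0.76 for SDHD, and 0.34 for SDHC, 0.70 for COX15 and 2.39 for CYB5A.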

How the results depend on the processing

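The counts of members called kept their direction and stayed within 1.5 times their main value under every alternative run, with 1 exception: 1 member, UROS, in place of 2 was higher in MUTZ-1 control than in SKM-1 control with library totals alone and with limma on log2(FPKM + 1) or log2(FPKM + 0.1). Library totals alone moved the median of all genes by 0.129 for the difference between the lines' effects and by -0.136 between the control groups. Leaving out each library in turn gave 2 to 4 members higher and 3 to 5 changed in MUTZ-1, and 6 higher in SKM-1 each time. The difference of the ALAS1 to ALAS2 log2 ratio then ranged from -2.12 to -2.06 in SKM-1 and from -0.804 to -0.378 in MUTZ-1. Of the single-gene results, 1823 kept direction and call, 34 lost and 10 gained the call, and 41 changed sign, all of them values that had not passed the test; the causes were not tested.

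The changes of sign were these, where library totals and the limma settings on FPKM share the same scaling. In MUTZ-1, FECH was 0.018 with DESeq2 size factors and with the DESeq2 Wald test, 0.043 with library totals and 0.040 and 0.045 with limma, and UROD was 0.021, 0.020 and 0.020 with library totals and limma. In SKM-1, with library totals and the 2 limma settings, ALAS1 was -0.0028, -0.0025 and -0.0026, UROS -0.058, -0.051 and -0.056, and PPOX -0.0033, -0.0035 and -0.0037; UROS was -0.00069 in a fit of only the groups compared. The difference between the lines' effects was 0.076, 0.071 and 0.076 for ALAS1 and 0.066, 0.061 and 0.066 for ALAD in those 3 settings. With a library left out, the ranges were -0.075 to 0.040 for UROD and -0.016 to 0.034 for FECH in MUTZ-1, -0.031 to 0.084 for UROS in SKM-1, and, for the difference, -1.12 to 2.51 for ALAS2, -0.11 to 0.015 for ALAD and -0.067 to 0.0013 for ALAS1.

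Same-numbered libraries did not deviate together (correlations -0.071 to 0.023; 1 of 6 libraries correlated best with its own number), so the replicate numbers were not taken as pairs. With a replicate block, 3 members changed in MUTZ-1 (ALAD was lost, adjusted p = 0.0513) and 6 in SKM-1, and the block gave 6533 and 11446 changed genes in the 2 lines in place of 6680 and 11500. ALAD was 0.017 between the control groups with the block. The depth limits ALAS2 in MUTZ-1, where a total of 12 counts in 6 libraries carries the comparison.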
